A study of Caenorhabditis elegans with 15 samples.

Results

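Alternative 5’ splice sites that lie 3 nt apart were followed in 5 Caenorhabditis elegans strains. A pair was taken when both sites joined the same 3’ end, the sites were exactly 3 nt apart and the pair had a value in all 15 libraries. This left 933 pairs of the 1333 found in at least 1 library, among 15261 alternative 5’ events of any distance that had a value in all 15. The 933 pairs hold 922 distinct combinations of 5’ sites, because some are joined to more than 1 3’ end. Their introns, measured from the upstream site, ran from 42 to 9445 nt with a median of 57 nt, and 578 of them were under 100 nt.

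Poly(A)-selected RNA of mixed-stage whole worms was sequenced as 3 libraries per strain. Every strain carries smg-4(az152), an allele that disables nonsense-mediated decay, so that transcripts with early stop codons are kept, and a strain with that allele alone is the smg-4 control. Beside that allele, on chromosome V, KIN17(K23N) carries unc-73(e936az30)dxbp-1(az121) and KIN17(M107I) carries unc-73(az63) dxbp-1(az52), both on chromosome I, where dxbp-1 encodes the worm KIN17. PRCC(I371F) carries prcc-1(az122) and PRCC(null) carries prcc-1(gk5556), both on chromosome IV, and the gk5556 deletion takes out the coding sequence. In the labels PRCC(null) and KIN17(M107I) have library numbers 24 to 29 and the other strains 1 to 9, so in the former the set of libraries and the strain cannot be told apart in a comparison with the control. Whole worms were used, so no cell type can be assigned, and each mutation was studied in 1 strain.

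The 5’ splice site is the exon-intron boundary that is first bound by the U1 snRNP and later handed to U6 and the activated spliceosome. Nearly all introns begin with GU, written GT in DNA. When a second site lies 3 nt away, choosing it adds or removes 1 codon and leaves the reading frame as it was, whereas shifts of 1, 2 or 4 nt change the frame. KIN17 and PRCC are proteins found with the spliceosome around the time of its activation.

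For each pair, PSI is the use of the downstream site, in percent of the pair. Using the downstream site lengthens the exon by 3 nt. The deposited tables give PSI without read numbers, so the depth behind each value is unknown and no interval for a single library could be computed.

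The study's own list of affected 5’ sites names 11 of the pairs by gene and prints the start of each intron. That list was drawn up on these same libraries, so it is not independent evidence of change or of direction. All 11 names were matched in the RefSeq gene table. The sequences of 9 of these introns are shown here, because they show both sites of pairs whose values are given in the text. Each starts at the upstream site, in ce10 coordinates and 5’ to 3’ on the strand of the gene. The first 3 bases go to the exon when the downstream site is used, and the capitals mark the first 2 bases of the intron that is then removed.

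ogdh-1 (chrIV:4703856-4703868, minus strand): gtaGTgacaaaaa
wdr-83 (chrII:5031341-5031353, minus strand): gtaGTtaagtatt
R04B5.5 (chrV:10087926-10087938, plus strand): gtaGTtctacaaa
Y43B11AR.3 (chrIV:7083348-7083360, minus strand): gtaGTcgtaattt
T24A6.20 (chrV:3553600-3553612, plus strand): gttGTagttttta
ceh-92 (chrIII:11587828-11587840, plus strand): gtaGCgaaaacat
F35H10.10 (chrIV:8312733-8312745, minus strand): gtaGCaaaattaa
pen-2 (chrIII:11343561-11343573, plus strand): gtaGAaaaaatca
atl-1 (chrV:9636302-9636314, minus strand): gtaATttttaaag

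Among the 11 introns the upstream site began GTA in 9, GTT in 1 and GTG in 1. At the downstream site the shorter intron began GT in 7, GC in 2, GA in 1 and AT in 1. The last 4 are therefore not GT sites, and they belong to ceh-92, F35H10.10, pen-2 and atl-1.

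In all 11 named introns the control worms used the upstream site almost exclusively, with mean PSI between 0 and 4.86%. In PRCC(null) the downstream site rose in all 11, and in PRCC(I371F) it rose in 9 of 11 (limma on the log2 odds of PSI over 15261 events, p adjusted by Benjamini-Hochberg and under 0.05). In each KIN17 strain 3 of 11 passed the same test.

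The intron of ogdh-1, which encodes the E1 subunit of the 2-oxoglutarate dehydrogenase complex of the citric acid cycle, had the largest gain of the 11. Its downstream site had a PSI of 0.508, 0 and 0% in the control libraries and 32.7, 32.7 and 35.3% in PRCC(null). The PRCC(I371F) libraries had 13.4, 19.2 and 6.13%, and the KIN17 libraries had between 3.39 and 5.77%. No mutant library overlapped the control, and PRCC(null) stood above all the others. The gain over the control was 33.4 percentage points in PRCC(null) (log2 odds difference 5.49 ± 0.41 SE, n = 3 libraries per strain, limma adjusted p = 2.47e-06) and 12.7 in PRCC(I371F) (adjusted p = 0.00011). In KIN17(K23N) and KIN17(M107I) the limma adjusted p was 0.0216 and 0.031, and the latter call was lost in 9 of 13 alternatives.

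In trak-1, a member of a family of adaptors that link mitochondria to motor proteins, all 3 control libraries were at 0. PRCC(I371F) had a PSI of 8.22, 7.80 and 9.39%, and PRCC(null) had 29.3, 23.6 and 23.1%, so the PRCC strains overlapped neither the control nor each other. The KIN17 libraries reached at most 2.74%. In mrpl-38, which encodes a protein of the large subunit of the mitochondrial ribosome, the downstream site had 20.7, 21.6 and 19.4% in PRCC(null) and 8.29, 7.06 and 4.5% in PRCC(I371F). Its control libraries had 0.279, 0 and 0%, which is below every mutant library. The limma adjusted p against the control was 4.5e-06 in PRCC(null) for trak-1 and 2.19e-06 for mrpl-38.

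The 4 pairs without GT at the downstream site also rose in both PRCC strains. In pen-2, which encodes a subunit of gamma-secretase, the 3 control libraries were at 0, PRCC(I371F) had 10.6, 12.7 and 10.7%, and PRCC(null) had 23.3, 17.5 and 18.0%. Here the KIN17 libraries also stood clear of the control, with 2.13, 2.43 and 2.61% in KIN17(K23N) and 3.77, 2.53 and 3.36% in KIN17(M107I) (limma adjusted p = 0.00857 and 0.00296). In atl-1, the worm ATR-family checkpoint kinase, the AT site was at 0 in the control, at 11.5, 9.4 and 14.7% in PRCC(I371F) and at 18.1, 23.9 and 18.2% in PRCC(null). For ceh-92, a homeobox gene, the GC site was at 0 in the control and averaged 12.8% ± 3.82 (SD, n = 3) in PRCC(I371F) and 18.0% ± 2.32 in PRCC(null). F35H10.10 averaged 16.4% ± 2.06 and 17.8% ± 1.25 in the same order, again from 0 in the control.

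Which PRCC strain was higher differed between introns. PRCC(I371F) had the higher mean in R04B5.5, with 21.9, 30.1 and 33.3% against 17.2, 21.3 and 18.0% in PRCC(null) and 4.79, 4.02 and 5.76% in the control. It was also higher in Y43B11AR.3, with 21.3, 24.1 and 19.6% against 14.3, 15.2 and 14.6% and 0 in the control. In a direct comparison of the PRCC strains neither difference passed (limma adjusted p = 0.445 and 0.752). In wdr-83, a WD-repeat protein gene, and in T24A6.20, only PRCC(null) passed the test against the control, with mean PSI of 25.7 and 24.2%. The PRCC(I371F) means were 7.14 and 7.11% (limma adjusted p = 0.0697 and 0.582), and the direct differences between the PRCC strains did not pass either (0.16 and 0.112). The T24A6.20 call in PRCC(null) was lost in 2 of 13 alternatives. It fell just outside the threshold without control replicate 1 (limma adjusted p = 0.0517), with a gain of 21.2 percentage points. With an offset of 0.001 in the log2 odds the adjusted p was 0.0577, for a gain of 22.2 percentage points.

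**Figure D1:**
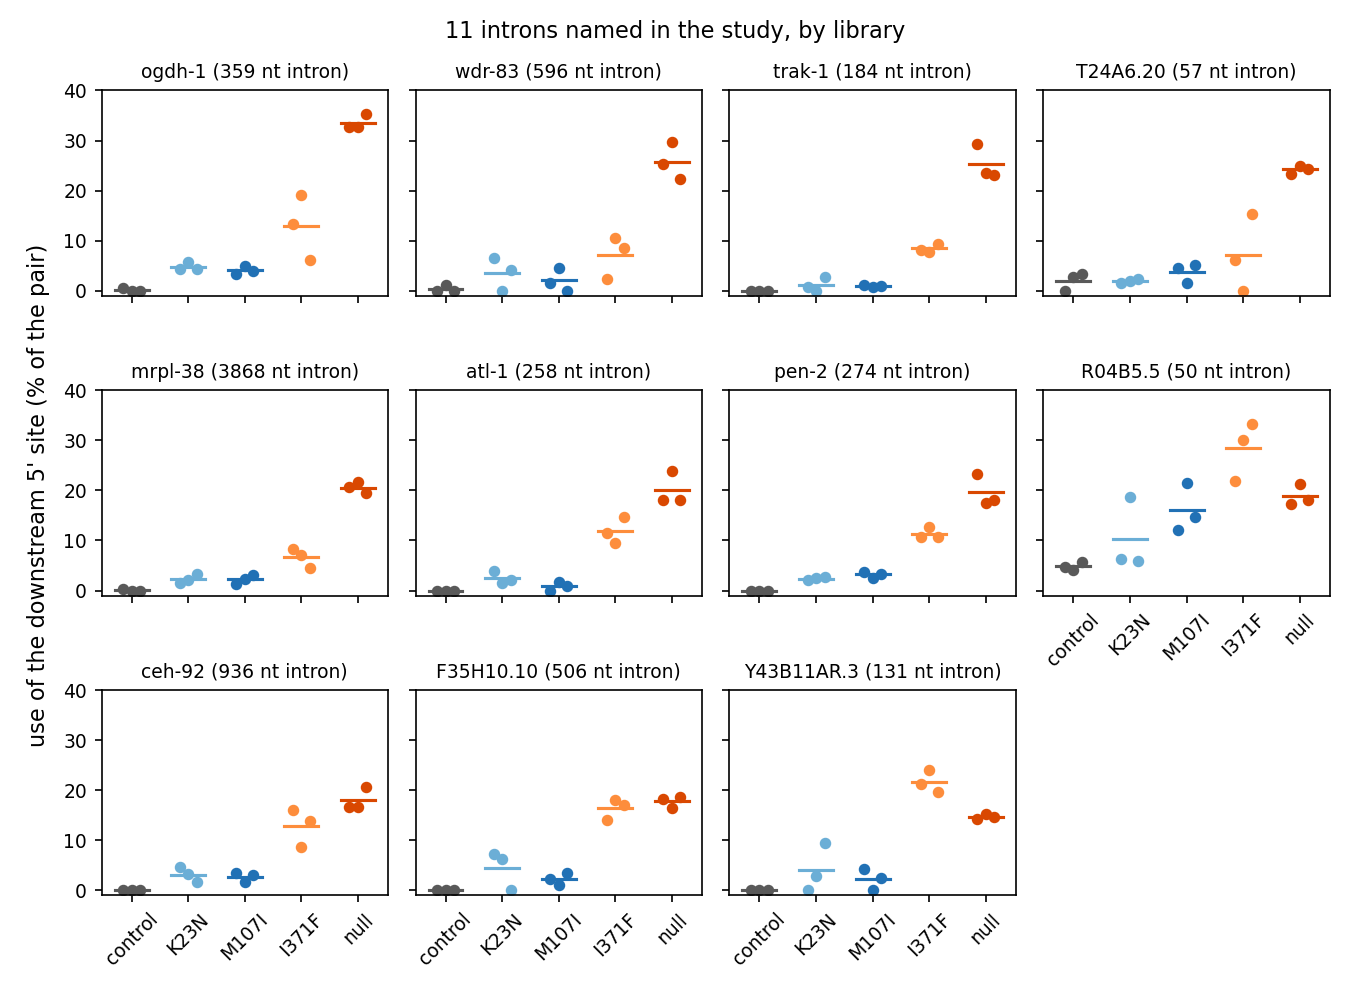
Use of the downstream 5’ site, in percent of the pair, for the 11 introns named in the study. Each point is 1 library, each line the mean of 3 libraries, and colours mark the 5 strains. The PRCC strains stand above the control in each panel, apart from PRCC(I371F) in T24A6.20, where 1 library is at 0.

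Over all 933 pairs the change was broad and mostly small. The share of pairs in which both sites were in use within a library was 19.0 to 22.0% in the control, 70.7 to 73.2% in PRCC(null), 64.8 to 67.6% in PRCC(I371F), 36.3 to 37.4% in KIN17(M107I) and 37.3 to 41.3% in KIN17(K23N). No mutant library overlapped the control, the PRCC strains did not overlap each other, and the KIN17 strains did. Over all alternative 5’ events the same shares were 33.8 to 36.3% in the control and 66.5 to 68.4% in PRCC(null). They were 59.6 to 63.3% in PRCC(I371F) and 43.3 to 47.1% in the KIN17 strains. The rise was not particular to 3 nt. Sites 1 nt apart had 20.9 to 22.8% in the control, 64.8 to 68.7% in PRCC(I371F) and 68.5 to 70.6% in PRCC(null). Sites 2 nt apart had 31.5 to 37.4%, 59.5 to 62.9% and 62.2 to 63.8% in that order. For sites 4 nt apart the median libraries had 27.7, 58.3 and 72.2%. The share depends on sequencing depth, which is unknown, and its part in these differences was not tested.

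**Figure D2:**
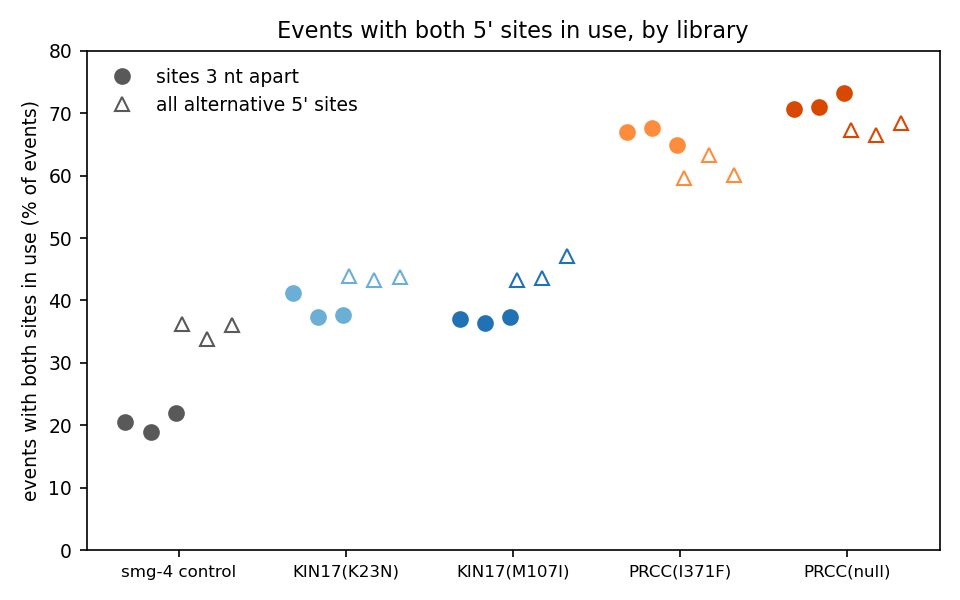
Share of events with both 5’ sites in use in each library, in percent of events, for the 933 pairs 3 nt apart (filled circles) and for all 15261 alternative 5’ events (open triangles). Each point is 1 library. The pairs 3 nt apart lie below all events in the control and above them in the PRCC strains. Events with sites 1, 2 and 4 nt apart, which also rise in the PRCC strains, are not plotted separately. Events exist only where both sites were seen in some library, which fixes part of the gap between control and mutant strains.

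By limma, 311 pairs changed in PRCC(null) at an adjusted p under 0.05 whatever the size, which is 33.3% of the pairs, against 22.9% of all alternative 5’ events. Of these, 262 moved downstream (against 19.6% of all events) and 49 upstream (3.3%). In PRCC(I371F) 215 pairs changed, or 23% of them, against 13.7% of all events, with 176 downstream (11.3%) and 39 upstream (2.41%). In KIN17(K23N) and KIN17(M107I) 10 pairs changed in each, or 1.07%, against 0.616% and 0.695% of all events. Leaving out 1 library brought the KIN17 counts as low as 4, without control replicate 1 or 3 in KIN17(K23N) and without control replicate 2 in KIN17(M107I). Events with sites 1, 2 and 4 nt apart are part of that background, and all 4 comparisons share the control libraries.

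Direction followed the site that the control favoured. Of 543 pairs whose control mean PSI was under 10%, 261 changed in PRCC(null) and 174 in PRCC(I371F), and all of these moved to the downstream site. These are 48.1 and 32.0% of the pairs, against 34.5 and 19.9% of all alternative 5’ events with that site favoured, where 2896 of 2921 and 1666 of 1680 calls also went downstream. Of 334 pairs over 90%, 49 changed in PRCC(null) and 37 in PRCC(I371F), and all of these moved to the upstream site. These are 14.7 and 11.1%, against 9.35 and 6.96% of all events of that kind, where 447 of 486 and 335 of 362 calls went upstream. The median change was small, at 1.53 and 0.93 percentage points where the upstream site was favoured, and -0.47 and -0.38 where the downstream site was favoured, in the same order of strains. Over all alternative 5’ events with the upstream site favoured it was 0.89 in PRCC(null) and 0.50 in PRCC(I371F), and with the downstream site favoured -0.11 and -0.07.

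The way the events were built fixes part of this direction. A pair exists only where both sites were seen in some library, so a pair at 0 or 100% in every control library can only move to its minor site, and 601 of the 933 pairs were of that kind. In the 80 pairs with both sites in use in all 3 control libraries, 17 changed in PRCC(I371F) and 15 of these moved to the minor site. In PRCC(null) 12 changed and 11 moved to the minor site. The shares called among these 80 pairs were 21.2% and 15%. The same shares over all alternative 5’ events were not computed. The minor site was set by the control means that also enter the comparison, which can favour moves to it.

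**Figure D3:**
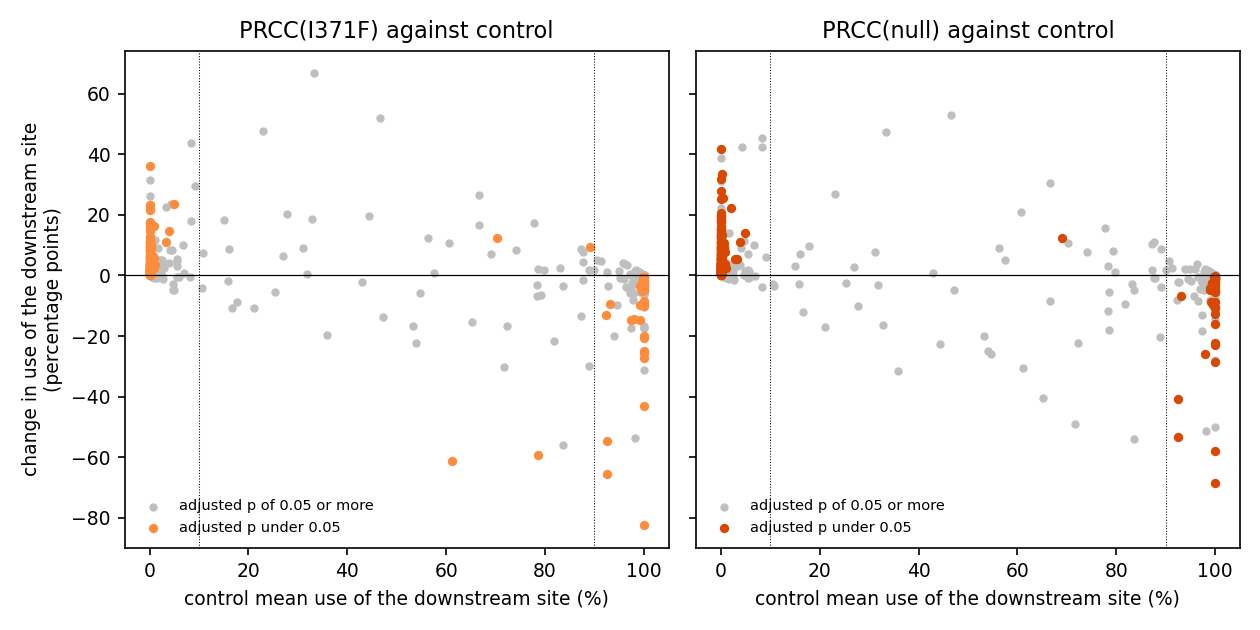
Change in use of the downstream 5’ site against its control mean for the 933 pairs, in percentage points, in PRCC(I371F) and PRCC(null). Each point is 1 pair, colour marks a limma adjusted p under 0.05, and dotted lines mark control means of 10 and 90%. Coloured points at the left edge lie above 0 and those at the right edge below 0.

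Where the control used both sites, few changes passed the test, and values spread widely. Of the 56 pairs with a control mean from 10 to 90%, 4 changed in PRCC(I371F), 1 in PRCC(null) and 0 in each KIN17 strain. These are 7.14 and 1.79%, against 3.30 and 5.36% of all events of that kind. The direction was mixed, with 2 of the 4 and 0 of the 1 moving to the minor site. The 4 steadiest pairs of those from 20 to 80% show what the replicate spread allows. The pair at 10639491 and 10639488 on chromosome I lay between 18.7 and 27.1% in all 15 libraries, and the one at 10599449 and 10599452 on chromosome V between 76.2 and 86.5%. On chromosome IV the pair at 3337560 and 3337557 lay between 23.7 and 36.4%, and on chromosome II that at 4458596 and 4458593 between 69.4 and 86.6%. Positions of sites are given as the last base of the exon. These 4 were picked for their narrow range, and none of them had a limma adjusted p under 0.05 in any strain. The median range over the 36 pairs of that kind was 55.5 percentage points.

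The shares called in the PRCC strains lay further apart in the longer introns, both for these pairs and for all alternative 5’ events. Among all pairs with an intron of 100 nt or more, 51.5% changed in PRCC(null) and 27.6% in PRCC(I371F), against 26.5 and 11.0% of all events of that length. Under 100 nt it was 22.1 and 20.2%, against 20.3 and 15.7%. Where the upstream site was favoured and the intron had 100 nt or more, 182 of 296 pairs changed in PRCC(null) and 97 in PRCC(I371F). Under 100 nt, 79 of 247 changed in PRCC(null) and 77 in PRCC(I371F). The median change in the longer introns was 2.13 and 0.84 percentage points, and in the shorter introns 0.97 and 1.13. Where the downstream site was favoured, 289 of 334 introns were under 100 nt, and these held 48 of the 49 pairs that changed in PRCC(null) and all 37 in PRCC(I371F). Counts and medians by favoured site and length together were not computed over all alternative 5’ events.

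When the PRCC strains were compared with each other, which uses no control library, 100 pairs differed at an adjusted p under 0.05 (10.7% of the pairs, against 8.07% of all events). PRCC(null) was higher at 80 of them (against 6.66% of all events), with a median intron of 254 nt, and lower at 20 (1.42%), with a median of 52.5 nt. Of the 80 pairs 64 had an intron of 100 nt or more, and of the 20 pairs 3 did. These strains come from different sets of library numbers, so set and allele cannot be told apart here.

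**Figure D4:**
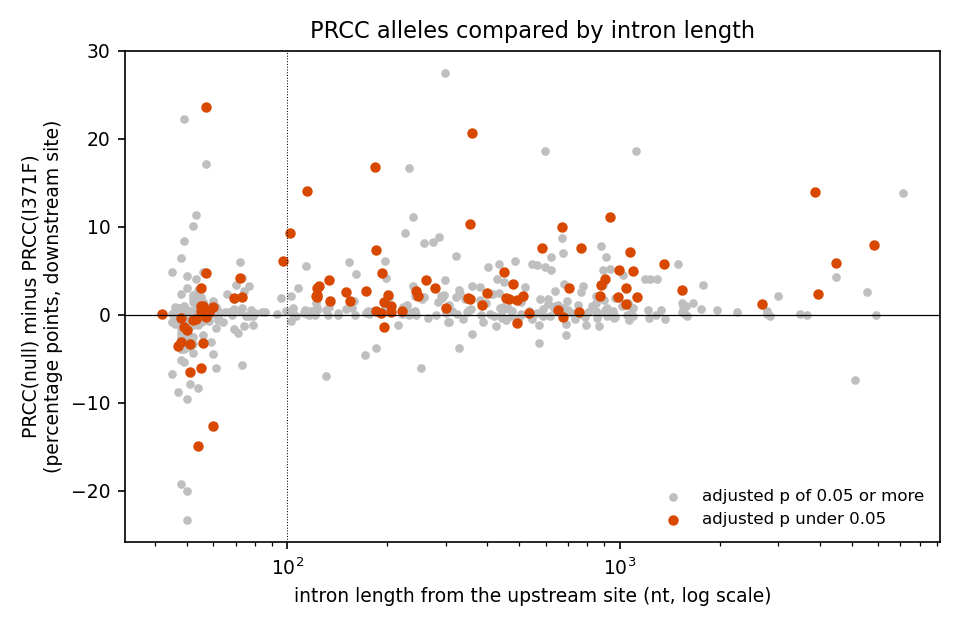
Difference in use of the downstream 5’ site between PRCC(null) and PRCC(I371F), in percentage points, against intron length on a log scale, for the 543 pairs whose control favoured the upstream site. Each point is 1 pair, colour marks a limma adjusted p under 0.05 for that difference, and the dotted line marks 100 nt. Coloured points right of the line lie mostly above 0.

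Within a set of library numbers the strains also differed. In PRCC(null) against KIN17(M107I) 253 pairs differed at an adjusted p under 0.05 (27.1%, against 18.6% of all events), and in PRCC(I371F) against KIN17(K23N) 137 did (14.7%, against 9.7%). The KIN17 strains, by contrast, come from different sets of library numbers and also carry different unc-73 alleles. Set, unc-73 allele and dxbp-1 allele therefore cannot be told apart between them. Between the KIN17 strains 0 pairs differed by limma, and 39 did at an unadjusted p under 0.05 (4.18%, against 5.19% of all events, of which 0.0131% passed with adjustment and 0.00655% also differed by over 20%). Their differences in mean PSI reached from -33.8 to 25.9 percentage points.

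Large changes were few. By the rule of the study, in which all 9 pairwise differences exceed 15% in 1 direction and their mean exceeds 20%, 19 pairs passed in PRCC(null), 15 in PRCC(I371F), 5 in KIN17(M107I) and 2 in KIN17(K23N). These are 2.04, 1.61, 0.536 and 0.214% of the pairs, and the same rule passed 1.55%, 1.31%, 0.374% and 0.328% of all alternative 5’ events. With limma and a mean difference over 20% the counts were 17, 16, 1 and 2, against 1.59%, 1.23%, 0.0983% and 0.0983% of all events. The PRCC(I371F) count was 10 without its replicate 2. That of KIN17(K23N) was 1 without its replicate 1 or 2 or control replicate 1 or 3, and that of KIN17(M107I) was 2 without its replicate 2 or control replicate 1 or 3. Of the pairs past the rule, 15, 11, 1 and 2 also had a limma adjusted p under 0.05.

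The large changes went both ways, and the directions differed in the length of the intron. In PRCC(null) 10 of the 19 pairs moved downstream (against 1.17% of all events), in introns with a median of 328.5 nt, and 9 moved upstream (0.38%), in introns with a median of 50 nt. In PRCC(I371F) 5 moved downstream (0.898%) and 10 upstream (0.413%), with medians of 185 and 50.5 nt. Over all pairs the median intron was 125 nt where the control favoured the upstream site and 51 nt where it favoured the downstream site. Whether length differed beyond the favoured site was not tested. The pairs of the study's list account for 6 of the 10 downstream moves in PRCC(null) and 2 of the 5 in PRCC(I371F), and for none of the upstream moves.

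Most of the large upstream moves, at least 7 of 10 in PRCC(I371F) and at least 7 of 9 in PRCC(null), were between minor sites. The largest of them lies at 7662920 and 7662917 on the minus strand of chromosome II, in an intron of 49 nt. Its PSI was 100% in all 3 control libraries, 65.5, 58.8 and 55.6% in KIN17(K23N), and 73.3, 50 and 31.2% in KIN17(M107I). It was 25, 11.5 and 16.3% in PRCC(I371F) and 36.4, 29.4 and 28.9% in PRCC(null). No mutant library overlapped the control, and this was the 1 pair to pass the rule in all 4 mutant strains. The limma adjusted p was 0.000386, 0.00035, 3.08e-06 and 2.1e-06 in the order given. With PSI tested in percent the calls in KIN17(K23N) and KIN17(M107I) were lost (adjusted p = 0.137 and 0.0643, for differences of -40.0 and -48.5 percentage points), and the latter was also lost in a fit of the 6 libraries compared (0.0584).

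Another 5’ site, at 7662921 and 1 nt upstream of this pair, was used far more than either member. Against that site, the upstream member of the pair was at 0 in the control libraries, at 2.68, 3.87 and 2.60% in PRCC(I371F) and at 1.62, 1.75 and 2.01% in PRCC(null), and it rose in both (limma adjusted p = 7.18e-05 and 0.000234). The downstream member stayed between 0.153 and 0.970% against the third site in all 15 libraries. The large swing in PSI of the pair therefore came with a small gain of a site 1 nt from the main one.

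The pair at 6791568 and 6791571 on chromosome X, in an intron of 50 nt, was similar. Its PSI was 100, 96.4 and 81.0% in the control, 24.4, 27.1 and 29.7% in PRCC(I371F) and 44.0, 35.3 and 37.9% in PRCC(null), without overlap. Against another site 1 nt upstream, the upstream member rose from at most 0.112% in the control to 4.08, 3.44 and 4.04% in PRCC(I371F) and 1.5, 1.17 and 1.43% in PRCC(null) (limma adjusted p = 7.38e-06 and 0.000216). The downstream member had mean values between 0.659 and 1.47% there, and its change did not pass in any strain. In a fit of only the 6 libraries compared, the pair itself missed the threshold in both PRCC strains (adjusted p = 0.0595 and 0.0508).

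The pairs at 11258128 and 11258125 on chromosome III, and at 11934237 and 11934240 on chromosome V, also lie beside a more used site 1 nt upstream. In the former, PSI was 100, 100 and 77.8% in the control, 44.0, 25.5 and 44.7% in PRCC(I371F) and 57.1, 50 and 48.1% in PRCC(null), without overlap with the control. Its upstream member rose against the third site to 9.15 and 4.55% on average in the PRCC strains, from 0.212% in the control (limma adjusted p = 4.96e-05 and 0.000201). The downstream member averaged 2.62% there in the control, 5.77% in PRCC(I371F) and 4.98% in PRCC(null), and neither change passed (limma adjusted p = 0.0878 and 0.138). The calls of this pair itself were lost in 5 and 6 of 13 alternatives, with adjusted p up to 0.112 and 0.0969; leaving out control replicate 1 gave 0.0699 and 0.0949 with differences of -50.8 and -37.1 percentage points, control replicate 2 gave 0.0713 and 0.0969, PRCC(I371F) replicate 2 gave 0.0552, and PRCC(null) replicates 2 and 3 gave 0.0568 and 0.0606.

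In the chromosome V pair PSI was 100% in all control libraries, 69.0, 75.0 and 73.9% in PRCC(I371F) and 39.1, 32.5 and 54.3% in PRCC(null). Its upstream member rose against the third site from 0 in the control to 1.31% on average in PRCC(I371F) and 2.17% in PRCC(null) (limma adjusted p = 0.00133 and 7.28e-05). Here the downstream member also rose against the third site in PRCC(I371F), from 0.808 to 3.43% on average (limma adjusted p = 0.00579), and its change in PRCC(null) did not pass (0.232).

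**Figure D5:**
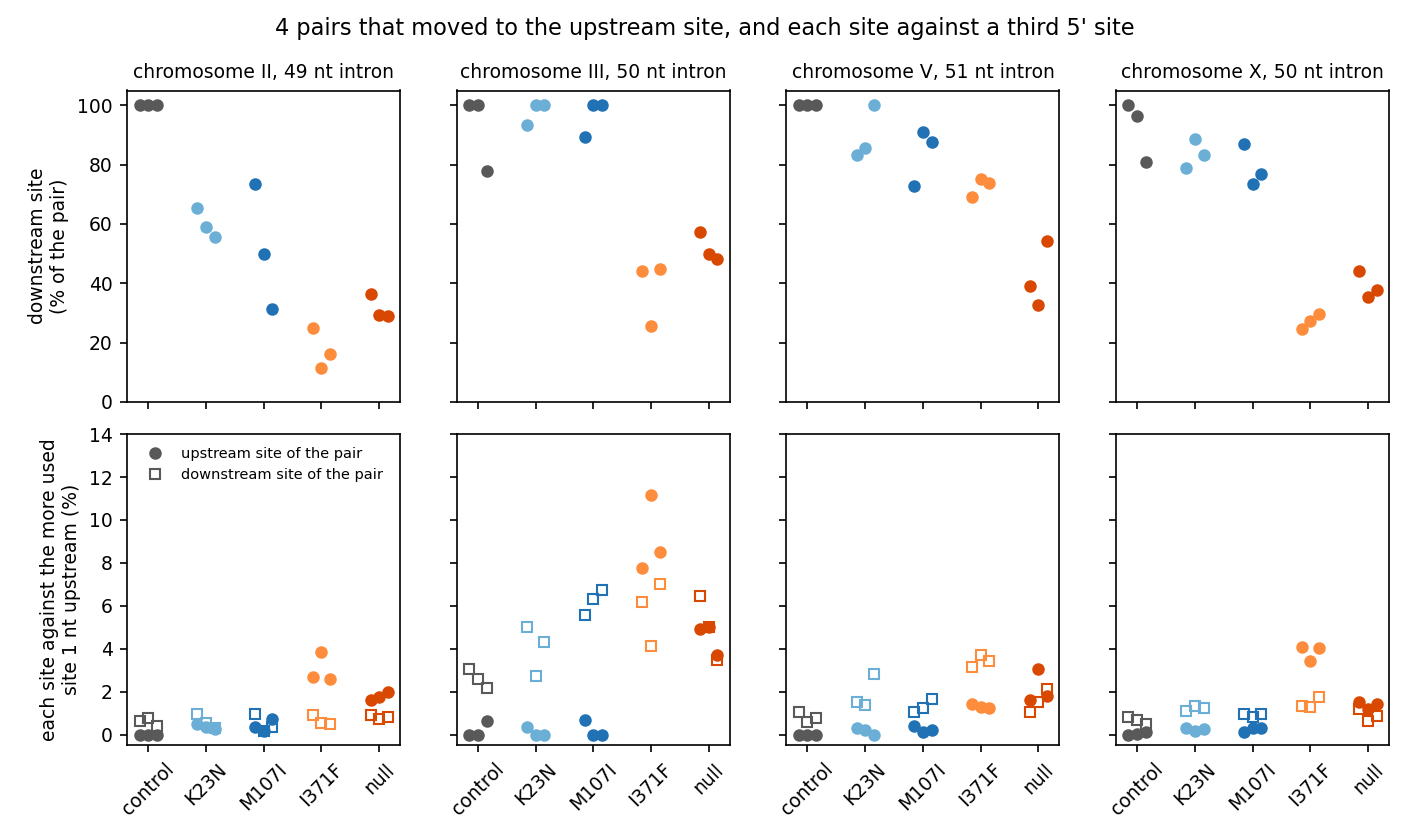
The 4 pairs named for moving to the upstream site that lie beside a more used site 1 nt upstream, by library. The upper row plots the use of the downstream site in percent of the pair, and the lower row the use of each member against the third site 1 nt upstream, in percent, with filled circles for the upstream and open squares for the downstream member. The filled circles rise from near 0 in the control to at most 11.2% in PRCC(I371F).

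Counted over all pairs, 334 of 933 had a site in common with another alternative 5’ event at the same 3’ end. In 61 pairs, 6.54% of all, another site was used more than the favoured member in the control, where these were scored against each other. Pairs whose favoured member was not scored against such a site are not counted, so 61 is a minimum. At 8104806 and 8104803 on chromosome II, for example, only the upstream member was scored against a more used site. This grouping was made after the values had been seen. The more used site lay 1 nt upstream of the pair in 29 of them and 1 nt downstream of it in 12, and in 57 of the 61 its distance was not a multiple of 3. In those 57 pairs both members keep frame with each other but not with the main site. The 61 pairs made up 12 of the 30 pairs that passed the rule in any strain.

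Without these 61 pairs 872 were left, and among them the rule passed 10 pairs in PRCC(null), 7 in PRCC(I371F), 3 in KIN17(M107I) and 0 in KIN17(K23N). Of these, 8 of 10 moved downstream in PRCC(null) and 4 of 7 in PRCC(I371F). The changes of any size were hardly touched, with 206 of the 215 pairs left in PRCC(I371F) and 301 of the 311 in PRCC(null).

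A pair with a large move downstream lies beside such a site as well. The pair at 10845877 and 10845874 on chromosome II, in an intron of 545 nt, was at 0 in the control, at 25, 62.5 and 28.6% in KIN17(K23N), at 20.0, 16.7 and 0% in KIN17(M107I), at 55.6, 35.7 and 16.7% in PRCC(I371F) and at 41.2, 45 and 39.1% in PRCC(null). Only KIN17(M107I) overlapped the control. Against a site 1 nt upstream, the downstream member averaged 2.67% in PRCC(null) and 0 in the control. The upstream member rose there too in PRCC(null), from 1.24 to 3.68% on average (limma adjusted p = 0.0259). The limma adjusted p of the pair was 0.0385 in KIN17(K23N), 0.00429 in PRCC(I371F) and 0.00146 in PRCC(null), and the KIN17(K23N) call was lost without any 1 of the 6 libraries compared, with differences between 26.8 and 45.5 percentage points. With PSI tested in percent the calls in KIN17(K23N) and PRCC(I371F) were lost (limma adjusted p = 0.394 and 0.0583, for differences of 38.7 and 36.0 percentage points).

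The pair at 5230278 and 5230281 on chromosome III, in an intron of 3351 nt, had 50, 66.7 and 66.7% in the control and 0 in all libraries of PRCC(I371F) and KIN17(M107I). Values differed widely within other strains, with 0, 50 and 0% in KIN17(K23N) and 41.7, 50 and 0% in PRCC(null). Its call in PRCC(I371F) (limma adjusted p = 0.0198) was lost without PRCC(I371F) replicate 2 or 3 (0.0519 and 0.05) or without control replicate 2 or 3 (0.0641 and 0.063), with differences of -61.1 and -58.3 percentage points. It too shares its sites with other events.

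Direct comparisons within a set of library numbers named a further 2 pairs. With a difference over 20 percentage points, 8 pairs differed between PRCC(null) and KIN17(M107I) (0.857%, against 0.858% of all events) and 8 between PRCC(I371F) and KIN17(K23N) (0.857%, against 0.727%). The pair at 5182847 and 5182850 on chromosome I, in an intron of 49 nt, was at 0 in the control, at 0, 0 and 5.56% in KIN17(M107I) and at 37.9, 35.3 and 21.7% in PRCC(null). PRCC(I371F) had 24.2, 35.1 and 10.5%. PRCC(null) stood clear of KIN17(M107I) by 29.8 percentage points (limma adjusted p = 0.00502). A site 1 nt downstream of the pair was used more than either member.

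The pair at 7924508 and 7924511 on chromosome IV, in an intron of 56 nt, had both sites in use in every library. PRCC(null) had a PSI of 82.0, 81.0 and 82.0%, and KIN17(M107I) had 42.1, 55.6 and 25.9%, a difference of 40.5 percentage points (limma adjusted p = 0.00681). The control libraries had 57.7, 56.2 and 68.0%, which lie between those strains, and neither passed the test against the control (limma adjusted p = 0.0946 for PRCC(null) and 0.803 for KIN17(M107I)). In a fit of the 6 libraries compared PRCC(null) passed it, at 21.0 percentage points (limma adjusted p = 0.0177). Here too a site 1 nt downstream of the pair was used more.

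Between the PRCC strains, 4 pairs differed by more than 20 percentage points, or 0.429% of them, against 0.216% of all events. They were in ogdh-1, at 8104806 and at 14105614 on chromosome II, and at 3988211 on chromosome I. The pair at 8104806 differed from the control in PRCC(I371F), by -59.4 percentage points (limma adjusted p = 0.000992), and did not pass in PRCC(null) (-5.5, adjusted p = 0.695).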

How the data were processed

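For each of the 15 libraries the authors deposited a table in which each form of an alternative 5’ event has a score, its PSI as a fraction times 1000. It was made with STAR on ce10 and junctionCounts. The authors had changed STAR so that the intron motif UU/AG replaced AU/AC and was scored like GU/AG. The events cover introns that reached 5 reads when all samples were summed and ends at most 50 nt apart. Scores of 1 and 999 were read as 0 and 100%. A second table per library, of annotated events, was not used here. Replicates are separate RNA isolations of a strain. The mean absolute difference between libraries of a strain was 1.35 to 3.61 percentage points over the 933 pairs, and 2.04 to 5.13 between strains.

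The rule of the study was applied without its inspection of single events. limma 3.58.1 in R 4.3.3 (trend and robust options) was fitted to log2((PSI + 0.01)/(1 − PSI + 0.01)) of 15 libraries and 15261 events, with p-values adjusted by Benjamini-Hochberg over all of them. The fit was tested on simulated data with large shifts and assumed depths, where only calls with a difference over 20% were counted. That test does not cover the smaller changes among the calls of any size. A call of any size needs an adjusted p under 0.05, and other calls also a mean difference over 20%. Tables and figures were made with Python 3.11.15, pandas 2.3.3 and matplotlib 3.10.9.

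Pairs are named by size of change (up to 6 per strain past the rule and limma, and up to 4 of those that move upstream), by the study's list, by size in direct comparisons of mutants (up to 4 each) and by the smallest range. Pairs and lists were chosen with earlier results of these data known. Alternatives were other thresholds, offsets and scales, fits of fewer libraries, and each library left out.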

Additional observations from a re-analysis of the deposited data

Results flagged for a closer look

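The PRCC strains differed directly at 4 pairs by more than 20 percentage points (limma adjusted p under 0.05, 0.429% of the pairs), and the KIN17 strains at 0. Both comparisons cross the sets of library numbers, so set and allele cannot be told apart. No group has more than 3 libraries, so single outlying libraries were not tested for.

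The largest gap was at 8104806 and 8104803 on the minus strand of chromosome II, in an intron of 43 nt. PSI was 74.5, 76.3 and 84.9% in the control, 31.0, 7.69 and 18.8% in PRCC(I371F) and 77.8, 72.4 and 69.0% in PRCC(null). PRCC(null) was thus 53.9 percentage points above PRCC(I371F), without overlap (limma adjusted p = 0.00311, and 0.00101 to 0.0797 over 13 alternatives). Another site 50 nt upstream was used more than the upstream member of this pair.

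In ogdh-1 PRCC(null) was 20.7 percentage points higher (limma adjusted p = 0.015), and the call was lost with an offset of 0.001 (0.175) and in a fit of the 6 libraries alone (0.186).

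At 14105614 and 14105617 on chromosome II PSI was 3.03, 5 and 4.55% in PRCC(I371F), 42.9, 7.14 and 33.3% in PRCC(null), and 0 in the 9 other libraries. The difference of 23.6 percentage points (limma adjusted p = 0.02) fell to 16 without PRCC(null) replicate 1 (0.0556), to 20.8 without its replicate 3 (0.0695), and was 23 without PRCC(I371F) replicate 1 (0.0673). In a fit of the 6 libraries alone the adjusted p was 0.303.

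At 3988211 and 3988214 on chromosome I PRCC(null) was lower by 35.0 percentage points, a difference of -35.0, with 14.3, 25 and 10% against 38.5, 35.7 and 80% in PRCC(I371F) (limma adjusted p = 0.0431). Without PRCC(I371F) replicate 3 the difference was -20.7 (0.0841), and without PRCC(null) replicates 1 and 3 it was -33.9 (0.101) and -31.7 (0.136). The call was also lost in a fit of the 6 libraries alone (0.335) and with an offset of 0.001 (0.0655). A site 1 nt downstream of this pair was used more than either member.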

How the results depend on the processing

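No paired analysis was possible because the labels give the libraries no numbers shared between strains. The counts of any size in the PRCC strains stayed within 1.5 times under every alternative run. PSI tested in percent gave 0 calls in both KIN17 strains at any size and over 20%, and 14 for PRCC(null) against KIN17(M107I), as did an offset of 0.05. That offset gave 2 calls of any size in each KIN17 strain and 1 over 20% in KIN17(K23N), and an offset of 0.001 gave 21 and 22 of any size in KIN17(K23N) and KIN17(M107I). Fitting only the 6 libraries gave 2 for KIN17(M107I). A difference over 10% gave 45 in PRCC(I371F), 56 in PRCC(null), 11 between the PRCC strains, 19 for PRCC(I371F) against KIN17(K23N) and 33 for PRCC(null) against KIN17(M107I). For the rule of the study, a smallest difference of 10% gave 5 in KIN17(K23N), one of 20% gave 3 in KIN17(M107I) and 8 in PRCC(I371F), and pairs scored in the 6 libraries alone gave 4 in KIN17(K23N).

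With 1 library left out, the rule, which then rests on fewer differences, gave 3 to 8 in KIN17(K23N), 4 to 9 in KIN17(M107I), 18 to 21 in PRCC(I371F) and 21 to 27 in PRCC(null). limma over 20% gave 1 to 2, 1 to 2, 10 to 17 and 14 to 23 in that order, and at any size 4 to 11, 4 to 8, 160 to 211 and 268 to 324. The lowest value of 10 in PRCC(I371F) came without its replicate 2. At any size, KIN17(K23N) had 4 without control replicate 1 or 3 and 5 without control replicate 2 or its own replicate 2, and KIN17(M107I) had 4 without control replicate 2 and 5 without its own replicate 1. Direct comparisons gave 2 to 6 between the PRCC strains, with 2 without PRCC(null) replicate 3, 0 to 1 between the KIN17 strains, with 1 without KIN17(M107I) replicate 2, 5 to 9 for PRCC(I371F) against KIN17(K23N), with 5 without KIN17(K23N) replicate 3, and 7 to 12 for PRCC(null) against KIN17(M107I). The cause of these differences was not tested. Over 962 values of single pairs under alternatives, 71 fell below and 2 rose above the threshold, and no called value changed direction. Depth is unknown, so what it limits cannot be given.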
